A study of Mus musculus with 19 samples.

Results

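Leukotrienes are lipid messengers made from arachidonic acid, and 8 mouse genes were followed here through the enzymes of their synthesis and the membrane glutathione transferases related to one of those enzymes: Mgst1, Mgst2, Mgst3, Alox5, Alox5ap, Ltc4s, Lta4h and Alox15. Each member was read from a probe set annotated to exactly 1 of these symbols, and from the probe set with the highest mean where there were several. All 8 members were found among 22180 genes with such a probe set. Mgst2 was chosen by its log2 values, since it was higher in the tumours than in wild type on these arrays, so its difference from wild type in the tumours is described without a test. The other 7 members were included by the pathway's name, with earlier results of these data known.

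The arrays measured total RNA of whole spleen from 19 mice, 1 array per labelled biological replicate, in a study of mice in which conditional expression of HGAL (a human gene expressed in germinal centre B cells) is followed by diffuse large B-cell lymphoma. Tumour-bearing spleens came from 3 lines: Rosa26-HGAL+Aid-Cre (4 arrays), Rosa26-HGAL+Mb1-Cre (5 arrays) and Rosa26-HGAL+Sca1-Cre (4 arrays). Pre-tumour spleens came from Rosa26-HGAL+Sca1-Cre mice (3 arrays), and the controls were Wild Type mice (3 arrays). The 16 HGAL arrays thus share the transgene and a Cre, and the wild-type mice carry neither by their label, so a group with a Cre and no HGAL, or with the silent transgene, is not among them. Aid is used by activated and germinal centre B cells, Mb1 (Cd79a) by the B lineage from its early stages, and Sca1 (Ly6a) by stem and progenitor cells among others, so the lines differ in the cells that can switch HGAL on. Ages and sexes are not stated in the labels used here, the mice lived in a conventional facility exposed to common pathogens, and the arrays measure tumour cells together with every other cell of the spleen.

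As background, cytosolic phospholipase A2 frees arachidonic acid from membranes. 5-lipoxygenase (Alox5), helped by its activating protein (Alox5ap), turns it into the unstable leukotriene A4. Leukotriene A4 hydrolase (Lta4h) makes leukotriene B4, which attracts neutrophils, whereas leukotriene C4 synthase (Ltc4s) joins leukotriene A4 to glutathione and so starts the cysteinyl leukotrienes. Ltc4s, Alox5ap and the microsomal glutathione transferases Mgst1, Mgst2 and Mgst3 belong to 1 protein family of small membrane proteins, and Mgst2 can also make leukotriene C4, best known outside blood cells. In spleen and bone marrow the 5-lipoxygenase route is best known from neutrophils, macrophages, mast cells and eosinophils, and Alox15 from eosinophils and some resident macrophages.

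The 250 bases upstream of the RefSeq start site (GRCm38.p6) are shown for Mgst2, the member from which the account starts, and for Mgst1, Alox5 and Lta4h, which varied together over the arrays. Capitals mark matches to 5 motifs that were chosen after the sequences had been seen and were searched on both strands: AP-1 (TGACTCA), the antioxidant response element core (TGACNNNGC), an ETS/PU.1 motif (AGGAAGT), a C/EBP motif (TTNNGCAA) and the GC box (GGGCGG).
Mgst2: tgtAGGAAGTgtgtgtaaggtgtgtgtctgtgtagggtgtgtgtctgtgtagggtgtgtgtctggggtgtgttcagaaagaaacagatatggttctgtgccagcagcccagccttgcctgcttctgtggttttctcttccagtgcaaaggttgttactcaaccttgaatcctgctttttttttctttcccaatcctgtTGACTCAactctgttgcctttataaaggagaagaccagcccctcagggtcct
Mgst1: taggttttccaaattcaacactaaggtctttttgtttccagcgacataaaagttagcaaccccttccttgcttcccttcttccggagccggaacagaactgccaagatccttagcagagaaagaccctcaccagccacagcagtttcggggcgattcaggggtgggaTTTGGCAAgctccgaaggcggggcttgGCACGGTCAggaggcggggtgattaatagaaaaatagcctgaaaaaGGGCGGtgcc
Alox5: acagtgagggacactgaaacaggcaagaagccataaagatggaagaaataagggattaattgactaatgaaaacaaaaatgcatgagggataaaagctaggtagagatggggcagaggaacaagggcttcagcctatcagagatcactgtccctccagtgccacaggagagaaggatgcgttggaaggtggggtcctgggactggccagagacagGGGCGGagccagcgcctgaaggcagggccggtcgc
Lta4h: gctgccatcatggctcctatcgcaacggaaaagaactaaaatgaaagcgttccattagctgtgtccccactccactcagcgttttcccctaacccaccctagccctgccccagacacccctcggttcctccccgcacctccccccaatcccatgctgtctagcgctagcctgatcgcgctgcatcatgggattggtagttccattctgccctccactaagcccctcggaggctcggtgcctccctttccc

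The Mgst2 window is chr3:51660929-51661178 on the plus strand, and its start site lies 24267 bases inside the gene as the gene table draws it, so it belongs to a shorter transcript. It holds an AP-1 match from base -52 to -46, counted from the start site, and an ETS/PU.1 match from -247 to -241. The Mgst1 window is chr6:138140277-138140526 on the plus strand, the first of 2 start sites listed. It holds a C/EBP match from -83 to -76, an antioxidant response element core on the other strand from -56 to -48, and a GC box from -10 to -5. The Alox5 window is chr6:116461179-116461428 on the minus strand, with a GC box from -35 to -30, and the Lta4h window is chr10:93453146-93453395 on the plus strand, with no match to these letters. No 2 matches overlapped. Of 32851 windows of the same length in the RefSeq table, 4.46% hold the AP-1 letters, 7.69% the ETS/PU.1 letters, 9.56% the C/EBP letters, 10.2% the antioxidant core and 32.7% the GC box. Among the other members with a window (6 of 8 in all), Mgst3 holds 2 GC boxes and Ltc4s 1 ETS/PU.1 match. A match is a string of letters and not a measured binding site.

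The values are log2 expression per probe set as deposited, so a difference of 1 is a 2-fold difference. They ran from 2.23 to 13.84, with array medians from 5.23 to 5.40, and each member lay above the 40th percentile of its array on 19 of 19 arrays. Alox5 was above the array median on 17 arrays and Alox15 on 14, and the other members on all 19. Markers of spleen cells such as Ms4a1 and Cd79a (B cells), Cd3e (T cells) and Slc40a1 (red pulp macrophages) were high on every array, the lowest of 8 such genes at the 68th percentile of its array. Mb1-Cre tumour replicate 2 and wild type replicate 2 stood apart by genes of the exocrine pancreas: the mean of 8 measured pancreas markers of 10 was 7.98 and 6.06 on these arrays and 4.59 to 5.52 on the other 17. Results are given with and without this pair where it matters. In bulk tissue, fewer cells of a type and less RNA per cell cannot be told apart, which holds for every value below.

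Mgst2, a microsomal glutathione transferase that can conjugate leukotriene A4, was lowest in wild type. The wild-type arrays read 6.02, 5.90 and 6.06. The pre-tumour Sca1-Cre spleens read 6.59, 6.72 and 6.42, and the Sca1-Cre tumours read 6.74, 6.46, 7.15 and 6.32. The Aid-Cre tumours read 7.25, 7.50, 6.77 and 7.11, and the Mb1-Cre tumours read 7.60, 7.19, 6.75, 6.99 and 7.07. All 16 HGAL arrays, tumour or not, lay above the highest wild-type array, with a gap of 0.27 between 6.32 and 6.06, and 0.144% of all genes (32) showed such a separation. This separation is in part what placed Mgst2 among the members, and nothing is read from it.

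**Figure D1:**
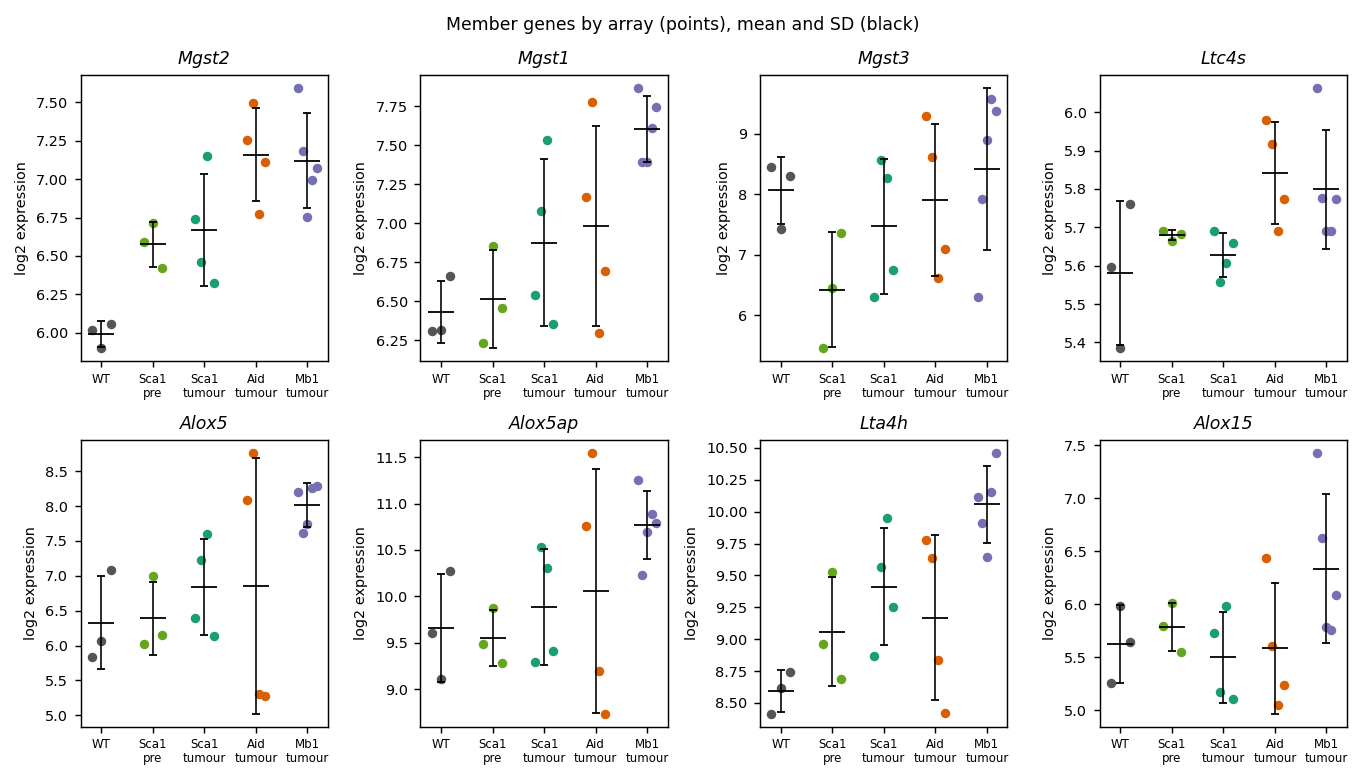
Log2 expression of the 8 members on each of the 19 arrays (points, coloured by group), with the mean and SD of each group in black; the vertical scales differ between panels. Mgst2 is lowest in wild type, between 5.90 and 6.06. In every panel Aid-Cre tumour replicates 1 and 2 lie above replicates 3 and 4, most widely for Alox5 on the probe set shown.

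By group, Mgst2 averaged 7.16 ± 0.30 for Aid-Cre (SD, n = 4), 7.12 ± 0.31 for Mb1-Cre (SD, n = 5) and 6.67 ± 0.36 for Sca1-Cre tumours (SD, n = 4), 6.58 ± 0.15 before tumours (SD, n = 3) and 5.99 ± 0.08 for wild type (SD, n = 3). As a description, the differences from wild type were 1.17 ± 0.20 (SE) in Aid-Cre, 1.13 ± 0.20 in Mb1-Cre and 0.68 ± 0.20 in Sca1-Cre tumours (no overlap in any line, which 3.75%, 4.1% and 6.21% of all genes showed with tumours higher), and 0.99 ± 0.17 over the 3 lines weighted equally, or 1.99-fold (0.243% of genes had all 13 tumour arrays above wild type). In the order of levels, pre-tumour and wild type were separated by more than their SDs together, and the neighbours above them were not. Without the pair of arrays with pancreatic transcripts, the difference over the 3 lines was 0.94 ± 0.22.

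The comparison of pre-tumour with wild-type spleen was not used to choose Mgst2, but it shares the wild-type arrays with the comparisons that were. Mgst2 was 0.58 ± 0.22 (SE) higher before tumours, with a 95% interval from 0.12 to 1.05, and did not pass limma's test over all genes (unadjusted p = 0.0163, adjusted p = 0.851). Of all genes, 0.00451% passed that test, and the groups did not overlap with pre-tumour higher for 8.35% of genes. With a covariate from sex-linked genes the difference was 0.31 ± 0.17 (adjusted p = 0.935). Between Sca1-Cre tumours and pre-tumour spleens of the same line the difference was 0.09 ± 0.20 (adjusted p = 0.949 by limma), with an interval from -0.34 to 0.53.

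The comparisons between tumour lines do not use wild type. Mgst2 was 0.49 ± 0.19 higher in Aid-Cre than in Sca1-Cre tumours (adjusted p = 0.275 by limma) and 0.45 ± 0.18 higher in Mb1-Cre than in Sca1-Cre tumours (adjusted p = 0.213). Aid-Cre and Mb1-Cre tumours differed by 0.04 ± 0.18, with an interval from -0.34 to 0.42 (adjusted p = 0.970). None of these passed the threshold of 0.05, and the moderated F-test over the 3 lines gave an adjusted p of 0.269. Of all genes, 0.0451% passed for Aid-Cre against Sca1-Cre, 0.0406% for Mb1-Cre against Sca1-Cre, 0.0451% for Aid-Cre against Mb1-Cre and 0.0496% in the F-test.

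Mgst2 lies at chr3:51636912-51682675 (GRCm38.p6). The 3 measured genes on either side did not pass the test in all tumours against wild type, where 0.018% of all genes did. The next gene, Maml3, a coactivator of Notch signalling that starts 4.6 kb further on, read -0.39 ± 0.22 (SE) in that comparison. Setd7, a lysine methyltransferase, read -0.26 ± 0.14, 5031434O11Rik read -0.25 ± 0.11 and Rab33b read -0.11 ± 0.15 on the near side. Foxo1 read -0.49 ± 0.41 and Gm2447 read 0.27 ± 0.32 beyond Maml3. Gm2447 was the only neighbour with a positive sign here. The sign of Mgst2 in this comparison was fixed by its choice, so nothing is read from setting its neighbours against it. Before tumours the signs were mixed: Gm2447 read 0.61 ± 0.40, Foxo1 0.31 ± 0.52 and Rab33b 0.15 ± 0.20, and the other three read from -0.20 to -0.01, none of which passed.

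The genes whose pattern over the 19 arrays was most like that of Mgst2, by Pearson correlation, were Pdgfc (r = 0.833), Zfp992 (0.809), Bsn (0.808), Lmo1 (0.806) and Rab27b (0.803). After group means were taken out, these correlations were 0.640, 0.366, 0.664, 0.740 and 0.799. They describe these arrays, were picked as the highest of all genes and carry no test. Among the members, Mgst2 followed Mgst1 (r = 0.772) and Ltc4s (0.761) more closely than Alox5 (0.606), Alox15 (0.537) or Mgst3 (0.123). The group differences that chose Mgst2 enter these r. After group means were taken out, Alox15 (0.761) and Mgst1 (0.746) were closest, with Ltc4s at 0.608, Alox5 at 0.578 and Mgst3 at -0.056.

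Mgst1, the most widely distributed microsomal glutathione transferase (chr6:138140527-138156755), read 6.31, 6.32 and 6.66 in wild type and 6.23, 6.86 and 6.46 before tumours. The Mb1-Cre tumours read 7.87, 7.40, 7.39, 7.61 and 7.75, above every wild-type array. The Aid-Cre tumours read 7.17, 7.78, 6.29 and 6.70, and the Sca1-Cre tumours read 6.54, 7.08, 7.54 and 6.36, so both overlapped with wild type. The difference from wild type was 1.17 ± 0.29 (SE) in Mb1-Cre tumours, with a 95% interval from 0.56 to 1.79 (unadjusted p = 0.00091, adjusted p = 0.204 by limma). It was 0.55 ± 0.30 for the Aid-Cre line, 0.45 ± 0.30 for the Sca1-Cre line and 0.09 ± 0.32 before tumours, none of which passed. The Aid-Cre difference was 0.29 ± 0.27 without replicate 2, and the Sca1-Cre difference 0.23 ± 0.30 without replicate 3.

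Mgst3 (chr1:167371966-167393841), a family member with glutathione transferase and peroxidase activity, had a different pattern. It read 8.46, 7.43 and 8.30 in wild type and 5.45, 6.44 and 7.36 in pre-tumour spleens, every one of which was below every wild-type array. The Aid-Cre tumours read 9.30, 8.62, 6.61 and 7.10, the Mb1-Cre tumours read 6.30, 7.92, 8.90, 9.58 and 9.38, and the Sca1-Cre tumours read 6.29, 8.56, 8.26 and 6.75. Each tumour line thus held arrays both above and below the wild-type range. The difference before tumours was -1.64 ± 0.86 (SE) with a 95% interval from -3.46 to 0.18 (adjusted p = 0.883 by limma), where groups did not overlap with pre-tumour lower for 8.49% of genes. Over the 3 tumour lines the difference from wild type was -0.13 ± 0.68 (adjusted p = 0.968), with an interval from -1.56 to 1.30.

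The values of Mgst3 moved with markers of red cell precursors. The mean of 7 measured erythroid genes of 9 (among them Slc4a1, the red cell anion exchanger, and Tfrc, the transferrin receptor) averaged 9.82 in wild type (9.39 to 10.2) and 7.76 in pre-tumour spleens (6.41 to 8.90). It ran from 7.70 to 11.1 in Aid-Cre, 7.14 to 11.1 in Mb1-Cre and 7.78 to 10.3 in Sca1-Cre tumours. Over the 19 arrays Mgst3 and this mean had r = 0.974 and rho = 0.977 (adjusted permutation p = 8.8e-05 for both, from the smallest p that 100000 permutations can give, over 88 relations of a member and a marker list). The r was 0.968 without the 2 arrays farthest from the median of the erythroid mean and 0.970 after group means were taken out. The genes most like Mgst3 were Abcg4 (r = 0.983), Ubac1 (0.981) and Cldn13 (0.980), of which Cldn13 is a claudin known from mouse red cell precursors. Mgst3 also moved with markers of dividing cells (5 of 6 measured, r = 0.909, rho = 0.907, adjusted permutation p = 8.8e-05 for both). After group means were taken out that r was 0.889. With the T cell markers (9 of 10 measured) r was -0.737. The part of the erythroid genes or of these other lists in the values of Mgst3 was not tested.

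Ltc4s (chr11:50236461-50238532), the enzyme dedicated to leukotriene C4, varied little. It read 5.60, 5.39 and 5.76 in wild type, 5.69, 5.66 and 5.68 before tumours, and 5.69, 5.56, 5.61 and 5.66 in Sca1-Cre tumours. The Aid-Cre tumours read 5.98, 5.92, 5.69 and 5.77, and the Mb1-Cre tumours read 6.06, 5.78, 5.69, 5.69 and 5.77. All of its values lay between 5.39 and 6.06, and 5 arrays carried the identical value of 5.69. Such repeats can arise when few probes set a summary, and probe-level data were not used here, so the small variation may belong to the probe set. The difference from wild type was 0.26 ± 0.10 (SE) in Aid-Cre tumours (adjusted p = 0.511 by limma), 0.22 ± 0.10 in Mb1-Cre tumours (adjusted p = 0.422) and 0.05 ± 0.10 in Sca1-Cre tumours. Wild type replicate 2 had the lowest value, and without it and the other array with pancreatic transcripts the differences were 0.16 ± 0.11, 0.13 ± 0.11 and -0.05 ± 0.11 for the Aid-Cre, Mb1-Cre and Sca1-Cre lines.

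Aid-Cre tumour replicates 1 and 2 lay above replicates 3 and 4 in all 8 members on the probe sets used. For Mgst2 they read 7.25 and 7.50 against 6.77 and 7.11, and the division was widest in Alox5. Alox5 (chr6:116410071-116461178) read 8.08 and 8.76 in Aid-Cre tumour replicates 1 and 2 and 5.30 and 5.28 in replicates 3 and 4, which were the lowest of all 19 arrays. The Mb1-Cre tumours were uniformly high at 8.19, 7.62, 7.74, 8.26 and 8.29. The Sca1-Cre tumours read 6.39, 7.23, 7.60 and 6.14, the pre-tumour spleens 6.02, 6.99 and 6.16, and the wild-type spleens 5.83, 6.06 and 7.09. On the probe set used, every Mb1-Cre tumour was above every wild-type array and every Sca1-Cre tumour, which held for 4.1% and 2.43% of all genes.

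Alox5 averaged 8.02 ± 0.31 (SD, n = 5) over Mb1-Cre and 6.86 ± 1.83 (SD, n = 4) over Aid-Cre tumours, so the Aid-Cre mean stands for no single array. The difference from wild type was 1.69 ± 0.66 (SE) in Mb1-Cre tumours, or 3.23-fold, with a 95% interval from 0.30 to 3.09 (unadjusted p = 0.0202, adjusted p = 0.353 by limma). This SE pools the spread of all 5 groups, among them the Aid-Cre SD of 1.83. When the fit held only the Mb1-Cre and wild-type arrays, the difference was 1.69 ± 0.29 and did not pass (adjusted p = 0.0570 by limma). In the fit over all groups the difference from wild type was 0.53 ± 0.69 for the Aid-Cre line and 0.51 ± 0.69 for the Sca1-Cre line. Mb1-Cre exceeded Sca1-Cre tumours by 1.18 ± 0.61 (adjusted p = 0.326). A second probe set for Alox5 followed the first (r = 0.916) over a smaller range, with 0.75 ± 0.32 in Mb1-Cre tumours against wild type. On it Sca1-Cre tumour replicate 3, at 7.31, lay within the Mb1-Cre range of 6.91 to 7.41. Aid-Cre tumour replicates 3 and 4 read 6.16 each there, and wild type replicate 1 was lower at 6.14.

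Alox5ap (chr5:149265004-149288153), which presents arachidonic acid to 5-lipoxygenase, followed Alox5 with r = 0.957 over the 19 arrays. It read 10.76, 11.55, 9.20 and 8.74 in Aid-Cre tumours, again high in replicates 1 and 2 and low in replicates 3 and 4. The Mb1-Cre tumours read 11.26, 10.23, 10.69, 10.88 and 10.79, the Sca1-Cre tumours 9.29, 10.53, 10.31 and 9.42, the pre-tumour spleens 9.48, 9.88 and 9.29, and the wild-type spleens 9.61, 9.11 and 10.27. Mb1-Cre tumours overlapped with wild type by 1 wild-type array at 10.27, and the difference was 1.11 ± 0.50 (SE; adjusted p = 0.429 by limma). A second, dimmer probe set followed the first less closely (r = 0.706) and gave 0.76 ± 0.27 (adjusted p = 0.306). The Aid-Cre tumours read 6.32, 7.44, 6.07 and 6.66 on it, so it did not show the division into replicates 1 and 2 against 3 and 4.

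Lta4h (chr10:93453396-93484896), the hydrolase that makes leukotriene B4, had the smallest adjusted p of the tested members in Mb1-Cre tumours against wild type. Wild-type spleens read 8.42, 8.62 and 8.74, and pre-tumour spleens read 8.96, 9.53 and 8.69. The Mb1-Cre tumours read 10.12, 9.91, 9.64, 10.15 and 10.46 and the Sca1-Cre tumours 8.87, 9.57, 9.95 and 9.25, in each case above every wild-type array. The Aid-Cre tumours read 9.77, 9.64, 8.84 and 8.42, of which replicate 4 was within the wild-type range. Sca1-Cre tumours did not overlap with wild type, with tumours higher, for 6.21% of genes.

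The difference of Lta4h from wild type was 1.47 ± 0.30 (SE) in Mb1-Cre tumours, or 2.76-fold, with a 95% interval from 0.84 to 2.10 (unadjusted p = 0.00014, adjusted p = 0.156 by limma). By unadjusted p it ranked 18 of 22180 genes there. It was 0.82 ± 0.31 in Sca1-Cre tumours (adjusted p = 0.322), 0.58 ± 0.31 in Aid-Cre tumours (adjusted p = 0.653) and 0.47 ± 0.33 before tumours (adjusted p = 0.893). It was 0.37 ± 0.31 in the Aid-Cre line without replicate 1 and 0.23 ± 0.36 before tumours without pre-tumour replicate 2. Aid-Cre tumours were below Mb1-Cre tumours by 0.89 ± 0.27 (adjusted p = 0.379). When the fit held only the Mb1-Cre and wild-type arrays, Lta4h (1.47 ± 0.17, adjusted p = 0.0293) and Mgst1 (1.17 ± 0.14, adjusted p = 0.0318) passed limma's test, as 2 of 61 genes called over all genes in that fit.

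**Figure D2:**
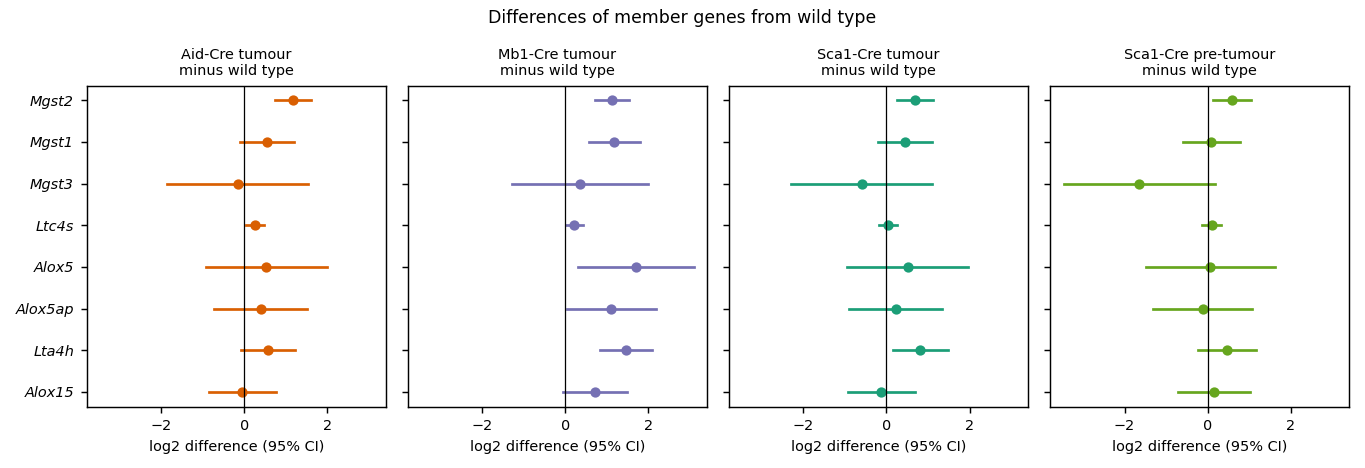
Difference of each member from wild type on the log2 scale (points) with its 95% confidence interval (lines) from the limma fit over 19 arrays, in 4 panels for the 3 tumour lines and the pre-tumour spleens. In Mb1-Cre tumours the unadjusted intervals of Mgst1, Ltc4s, Alox5, Alox5ap and Lta4h lie above 0. The points of Mgst2 lie between 0.58 and 1.17. Its intervals in the tumour panels are drawn as a description, since these differences chose Mgst2, and nothing is read from them. No member other than Mgst2 was higher by more than 0.47 before tumours.

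Alox15 (chr11:70344147-70390538), a lipoxygenase that acts on other carbons of arachidonic acid, stands beside the 5-lipoxygenase route. It read 7.43, 6.62, 5.78, 5.75 and 6.09 in Mb1-Cre tumours, with replicate 1 the highest of all 19 arrays. The other groups were close together, with Aid-Cre tumours at 6.44, 5.61, 5.05 and 5.24 and Sca1-Cre tumours at 5.73, 5.17, 5.99 and 5.11. Pre-tumour spleens read 5.80, 6.01 and 5.55 and wild-type spleens 5.25, 5.99 and 5.64. The difference from wild type was 0.71 ± 0.36 (SE) in Mb1-Cre tumours (adjusted p = 0.472 by limma) and between -0.13 and 0.16 in the other groups. Without Mb1-Cre tumour replicate 1 the former was 0.44 ± 0.31.

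Over the 8 members, 0 were called at an adjusted p under 0.05 by limma in any of the 9 comparisons or the F-test, not counting the comparisons of Mgst2 that are given without a test. No gene at all (0%) was called in Mb1-Cre tumours against wild type, and 0.0406% of genes were in Sca1-Cre tumours against wild type, 0.018% in Aid-Cre tumours against wild type and 0% in Sca1-Cre tumours against pre-tumour spleens. At an unadjusted p under 0.05, 5 of the 7 tested members passed in Mb1-Cre tumours against wild type, where 11.3% of all genes did: Mgst1, Alox5, Alox5ap, Ltc4s and Lta4h. In Mb1-Cre against Sca1-Cre tumours 4 of 8 did (17.6% of all genes), in all tumours against wild type 2 of 7 (8.93%), in the Aid-Cre and the Sca1-Cre line against wild type 1 of 7 each (8.3% and 11.4%), and before tumours 1 of 8 (5.47%), which was Mgst2, whose wild-type arrays had entered its choice. Aid-Cre against Mb1-Cre tumours gave 3 of 8 (8.76%), Aid-Cre against Sca1-Cre 2 of 8 (13.6%), Sca1-Cre tumours against pre-tumour spleens 0 of 8 (5.34%) and the F-test 4 of 8 (16.3%). The median difference of the 7 members other than Mgst2 in Mb1-Cre tumours against wild type was 1.11, beside 0.00 for all genes, and before tumours it was 0.09, beside 0.01. The median over all genes lay near 0 in each of the 9 comparisons, so it does not show how far genes differ. The median absolute difference over all genes was 0.12 in Mb1-Cre tumours and 0.11 before tumours. These medians carry no test. All comparisons with wild type share the same 3 arrays.

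Alox5, Alox5ap, Lta4h and Mgst1 varied together. Over the 19 arrays the correlation was 0.915 between Mgst1 and Alox5, 0.880 between Mgst1 and Alox5ap and between Mgst1 and Lta4h, 0.869 between Alox5 and Lta4h, and 0.806 between Alox5ap and Lta4h. The genes most like Alox5 were Pygl (r = 0.987), Cpne2 (0.976) and Hp (0.975), those most like Alox5ap were Pygl (0.977), Hp (0.972) and Mcemp1 (0.972), and those most like Lta4h were Gca (0.959), Anxa3 (0.954) and Ero1a (0.945). Olfml2b (0.952), Hk3 (0.948) and Nhsl2 (0.946) were most like Mgst1. Pygl is liver glycogen phosphorylase, Hp is haptoglobin and Hk3 is a hexokinase, and all 3 are known from neutrophils among other cells.

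The same 4 members moved with the markers of neutrophils and their precursors, all 14 of which were measured (S100a8, a calgranulin, and Ngp, a granule protein, were the brightest). The mean of the list was 10.46 to 11.32 in Mb1-Cre tumours, 8.40 to 10.35 in Sca1-Cre tumours, 7.78 to 9.46 before tumours and 7.68 to 9.66 in wild type. In Aid-Cre tumours it was 10.40 and 11.00 in replicates 1 and 2 and 6.84 and 6.91 in replicates 3 and 4, the same division as in Alox5. Other lists divided these 4 arrays too: the erythroid mean was 10.84 and 11.14 against 7.70 and 8.91, the mean of 5 measured genes of dividing cells 9.86 and 10.13 against 7.10 and 7.99, and the B cell mean, in the opposite direction, 9.54 and 7.15 against 11.12 and 10.93. With the mean of the neutrophil list, Alox5 had r = 0.970 (rho = 0.970), Alox5ap 0.901 (0.891), Lta4h 0.881 (0.877) and Mgst1 0.880 (0.898). Each had an adjusted permutation p of 8.8e-05 over 88 relations. After group means were taken out the r were 0.975, 0.891, 0.865 and 0.864, and without the 2 arrays farthest from the median of the list they were 0.958, 0.883, 0.890 and 0.942. All 4 also moved with the mast cell and basophil markers (9 of 10 measured). There r was 0.904 for Mgst1, 0.875 for Alox5, 0.867 for Lta4h and 0.828 for Alox5ap. With the B cell list it was -0.80, -0.81, -0.67 and -0.81 in that order.

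**Figure D3:**
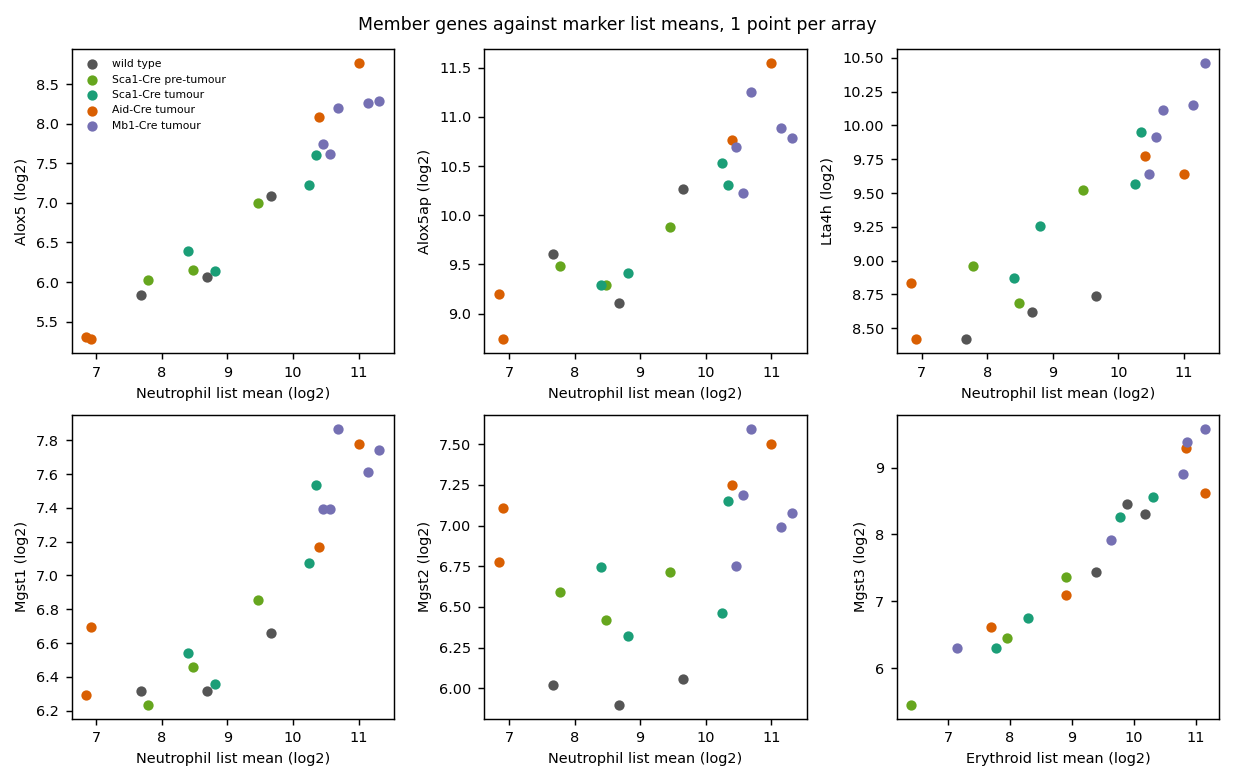
Log2 expression of 6 members (vertical axes) against the mean log2 expression of a marker list (horizontal axes), 1 point per array, coloured by group: 14 neutrophil genes for Alox5, Alox5ap, Lta4h, Mgst1 and Mgst2, and 7 erythroid genes for Mgst3. Alox5 and Mgst3 lie close to a line over all 5 groups (r = 0.970 and 0.974). For Mgst2 r is 0.478, and 0.718 without the 2 arrays farthest from the median of the list. The low wild-type arrays that chose Mgst2 enter its panel, and nothing is read from their place there.

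With the means of the neutrophil and macrophage lists as covariates, an alternative added after the data were seen, the difference of Alox5 between Mb1-Cre tumours and wild type went from 1.69 to -0.003 ± 0.19 (SE), and that of Alox5ap from 1.11 to -0.09 ± 0.29. Since Alox5 and the neutrophil list are so closely correlated, a fall of this kind follows from the covariate's construction, and it tests no cause. Lta4h went from 1.47 to 0.81 ± 0.20 (adjusted p = 0.560 by limma) and Mgst1 from 1.17 to 0.49 ± 0.18 (adjusted p = 0.810). Mgst2, as a description, went from 1.13 to 0.80 ± 0.18 there and from 0.99 to 0.83 ± 0.14 over the 3 lines, and before tumours it went from 0.58 to 0.52 ± 0.17 (adjusted p = 0.621). Between Mb1-Cre and Sca1-Cre tumours it went from 0.45 to 0.20 ± 0.15 (adjusted p = 0.647). Its own correlation with the neutrophil list was 0.478 (rho = 0.542), with the macrophage list (12 of 12 measured) 0.604 (rho = 0.600) and with the B cell list (10 of 11 measured) -0.654 (rho = -0.619). These are given without a p, since the values that chose Mgst2 enter them and the lists also differ between the groups. Without the 2 arrays farthest from each list's median these were 0.718, 0.472 and -0.574, and after group means were taken out 0.469, 0.695 and -0.569. The B cell list averaged 10.88 in wild type and 10.80 before tumours, and 9.68, 9.52 and 10.02 in Aid-Cre, Mb1-Cre and Sca1-Cre tumours.

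Alox15 moved with the macrophage list (r = 0.719, rho = 0.539, adjusted permutation p = 0.0035 and 0.042) and the eosinophil list (6 of 8 measured, r = 0.655, rho = 0.696, adjusted permutation p = 0.0074 and 0.0058). Without the 2 arrays farthest from the median, the r was 0.481 with macrophages and 0.606 with eosinophils. Mb1-Cre tumour replicate 1, where Alox15 was highest, had a macrophage mean of 8.95, and replicate 2 had 9.09 with Alox15 at 6.62. The genes most like Alox15 were Lasp1 (r = 0.822), Itgad (0.820), an integrin of splenic red pulp macrophages, and Fmnl2 (0.811). The genes most like Ltc4s were Ccdc190 (0.830), Hhipl1 (0.827) and Ppp1r3b (0.822). The part of these cell types in the members' values was not tested.

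Around the members, 64 further genes of 6 groups were listed and 57 were measured. By limma, 0 were called in any of the 9 comparisons, and at an unadjusted p under 0.05 the counts ran from 2 to 10 of 57, or 3.51% to 17.5%, beside 5.34% to 17.6% of all genes. Up to 2 of them were called under some alternatives, for example 1 in Aid-Cre against Sca1-Cre tumours with cyclic loess scaling or without Aid-Cre tumour replicate 3. Of the genes that supply, export and break down leukotrienes, 5 were higher and 5 lower of 10 in all tumours against wild type. Pla2g4a, the cytosolic phospholipase A2, was 1.08 ± 0.41 (SE) higher in Mb1-Cre tumours (7.17 ± 0.38, SD, n = 5) than in wild type (6.10 ± 0.32, SD, n = 3), with no overlap (adjusted p = 0.342 by limma). Ptgr1, which inactivates leukotriene B4, differed by 0.36 ± 0.31 (SE) over all tumours.

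Of the receptors, 4 were higher and 2 lower of 6 in all tumours. Ltb4r1, the high-affinity receptor for leukotriene B4, averaged 7.25 ± 0.46 for Mb1-Cre tumours (SD, n = 5) and 5.83 ± 0.43 for wild type (SD, n = 3), a difference of 1.42 ± 0.47 (SE; adjusted p = 0.290 by limma). Fpr2, a lipoxin and formyl peptide receptor, averaged 9.33 ± 0.38 for Mb1-Cre (SD, n = 5) and 7.14 ± 2.67 for Aid-Cre tumours (SD, n = 4), and 7.59 ± 0.24 for wild type (SD, n = 3). The wide Aid-Cre spread of Fpr2 is like that of Alox5. Both receptors are known from neutrophils.

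The other lipoxygenases were 2 higher and 3 lower of 5 in all tumours. Alox8, a lipoxygenase best known from skin, averaged 5.58 ± 0.23 for Sca1-Cre tumours (SD, n = 4) and 5.57 ± 0.13 before tumours (SD, n = 3), against 5.05 ± 0.14 for Aid-Cre (SD, n = 4) and 5.28 ± 0.11 for Mb1-Cre tumours (SD, n = 5) and 5.13 ± 0.06 for wild type (SD, n = 3). Aid-Cre and Sca1-Cre tumours differed by -0.53 ± 0.10 (SE; adjusted p = 0.0699 by limma), and Sca1-Cre tumours and pre-tumour spleens differed from wild type by 0.46 ± 0.11 and 0.44 ± 0.12 (adjusted p = 0.162 and 0.585). Aloxe3, a lipoxygenase of the skin barrier, differed by 0.12 ± 0.08 over all tumours.

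Of the prostanoid branch, which uses the same arachidonic acid, 8 genes were higher and 1 lower of 9. Ptgs2, the inducible cyclooxygenase, differed by 0.76 ± 0.60 (SE) and Hpgds, the haematopoietic prostaglandin D synthase, by 0.50 ± 0.51 over all tumours. The soluble glutathione transferases, unrelated in sequence to the microsomal ones, were 7 higher and 9 lower of 16. Gstp2 read -0.54 ± 0.15 over all tumours (adjusted p = 0.324 by limma) and -0.75 ± 0.18 in Mb1-Cre tumours (adjusted p = 0.192), and Gstp1 read -0.36 ± 0.24. These 2 genes are near-identical copies, so their probe sets may not tell them apart. Of the genes of glutathione synthesis and peroxidases, 9 were higher and 2 lower of 11, with Gsr, the glutathione reductase, at 0.85 ± 0.42 over all tumours and 1.14 ± 0.48 in Mb1-Cre tumours. Slc7a11, the cystine transporter, read 0.45 ± 0.41.

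**Figure D4:**
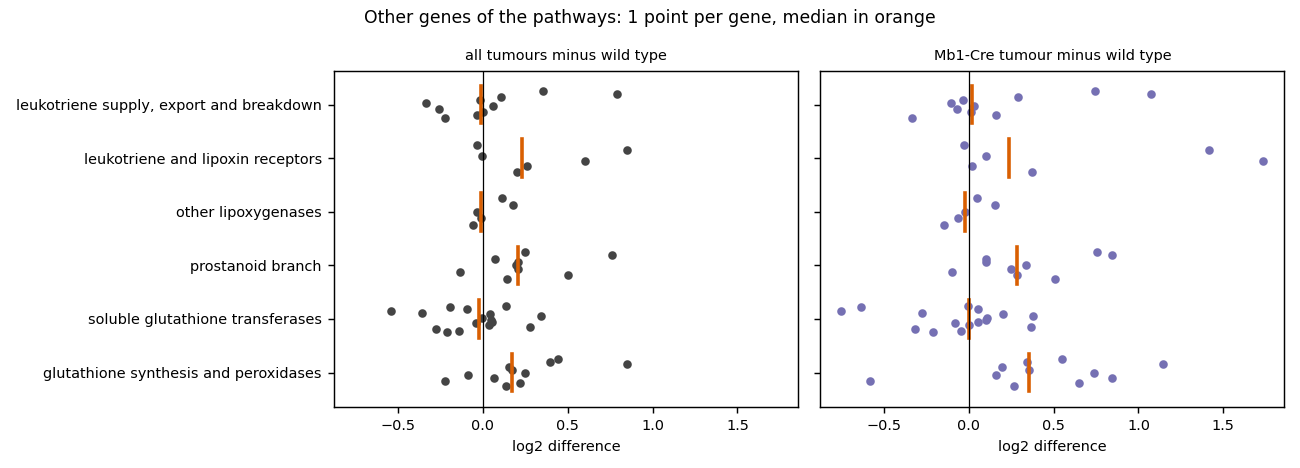
Log2 difference of each of the 57 measured pathway genes (1 point per gene) from wild type in all tumours (left) and in Mb1-Cre tumours (right), by group of genes, with the group's median in orange. In Mb1-Cre tumours the receptors reach 1.73 (Fpr2) and the soluble glutathione transferases go down to -0.75 (Gstp2), and no gene shown passed the test.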

How the data were processed

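Total RNA of whole spleen was measured on 19 Affymetrix arrays, grouped by their titles. The authors deposited log2 expression per probe set, and the submitters' processing notes name RMA and oligo (versions not given in the sources used here), and 0 columns were left unused. Of 41345 probe sets, 23521 carried 1 gene symbol, 1814 several and 16010 none in the platform annotation, which gave 22180 genes; for 1082 with several probe sets the one with the highest mean was used. The tests came from limma 3.58.1 (R 4.3.3), in 1 fit of 5 group means (residual df 14, prior df 2.46), 9 contrasts and a moderated F-test, two-sided, with Benjamini-Hochberg adjustment over all genes and calls under 0.05. The fit was tested on simulated data. The limma p-values set a difference against the spread between the mice sampled, pooled over the 5 groups.

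The members and lists were chosen with earlier results of these data known. Genes named were the members; from each pathway list any called gene and the 2 with the largest difference in all tumours against wild type; 3 genes (5 for Mgst2) most correlated with each member, leaving out predicted genes, small RNAs and receptor segments; 3 measured genes on each side of Mgst2; and 2 bright markers per list as examples. The 88 relations with 11 marker lists used 100000 permutations in Python 3.11.15 and two-sided tests. The permutations moved the arrays without regard to group, so group differences in a member and in a list enter these p-values. Promoter windows came from RefSeq (GRCm38.p6), and no window was used for Alox5ap or Alox15. Alternatives were other scalings, a filter on dim genes (14377 genes left), other probe set rules, other variance models, array weights, covariates, a replicate block, and arrays left out. Scanner files were not used here.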

Additional observations from a re-analysis of the deposited data

Results flagged for a closer look

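Ltc4s in Mb1-Cre tumour replicate 1 read 6.06, far above the other 4 arrays of its group, which lay between 5.69 and 5.78. This was 1 of 24 sets of 4 or 5 arrays checked in this way, and chance gives about 1 in 20. Mgst1, at 7.87, Mgst2, at 7.60, and Alox15, at 7.43, were also highest in that array among the 19.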

How the results depend on the processing

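Of the 72 differences of a member, 32 changed sign in at least 1 of up to 33 alternatives, 74 of 2312 values in all, and the largest of these was the 1.69 of Alox5 in Mb1-Cre tumours against wild type. Mgst2 in the tumours against wild type changed sign in 0 of 129, and nothing is read from this, since that difference chose Mgst2. As every tumour array lay above every wild-type array, leaving out 1 array could not turn its sign. The count of members called remained 0 in every comparison and alternative except Mb1-Cre tumours against wild type fitted on these 2 groups alone, where it was 2. With the covariate from sex-linked genes, Mgst2 moved from 1.17 to 0.85 in Aid-Cre tumours and from 0.58 to 0.31 before tumours, and Mgst1 from 0.55 to 0.20 in Aid-Cre and from 0.45 to 0.22 in Sca1-Cre tumours, all against wild type. Over all genes, the main counts of calls were 4, 4, 0, 9 and 1 for all, Aid-Cre, Mb1-Cre and Sca1-Cre tumours and pre-tumour spleens against wild type, and the alternatives other than leaving out 1 array gave 0 to 43, 0 to 32, 0 to 61, 0 to 99 and 0 to 21. Between tumour lines they gave 0 to 12 for Aid-Cre against Mb1-Cre (main count 10), 0 to 565 for Aid-Cre against Sca1-Cre (10), 0 to 33 for Mb1-Cre against Sca1-Cre (9) and 2 to 186 in the F-test (11), with the 565 and 186 from the neutrophil and macrophage covariates. Leaving out Aid-Cre tumour replicate 3 gave 229 for Aid-Cre against Sca1-Cre, 121 for Mb1-Cre against Sca1-Cre and 145 in the F-test, with 0 members called. The replicate numbers did not pair the arrays: over 33 pairs with the same number in other groups the deviations from group means had a mean r of -0.09 (from -0.58 to 0.45), and over 110 other pairs 0.03.

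With a covariate from sex-linked genes, the signs that turned were Alox15 -0.15 in all tumours against wild type, Alox5 -0.024 in Aid-Cre against wild type, Ltc4s -0.019 in Sca1-Cre against wild type, Mgst1 -0.23, Alox5 -0.43, Alox15 -0.30 in pre-tumour against wild type, Mgst2 -0.18, Ltc4s -0.031 in Aid-Cre against Mb1-Cre, Mgst1 -0.019, Alox5 -0.18, Alox15 -0.098 in Aid-Cre against Sca1-Cre. With the neutrophil and macrophage list means as covariates (chosen after the data were seen), the signs that turned were Alox15 -0.074 in all tumours against wild type, Mgst3 -0.68, Alox5 -0.0029, Alox5ap -0.086 in Mb1-Cre against wild type, Alox5 -0.080, Alox5ap -0.19 in Sca1-Cre against wild type, Alox5 -0.18, Alox5ap -0.098 in Sca1-Cre against pre-tumour, Mgst1 0.0047, Mgst3 0.59, Alox5 0.42, Alox5ap 0.40 in Aid-Cre against Mb1-Cre. With the replicate number as a replicate block, the signs that turned were Alox15 0.11 in Aid-Cre against wild type, Alox15 0.027 in Sca1-Cre against wild type. With the mean of all probe sets of a gene, the signs that turned were Alox5ap 0.077 in pre-tumour against wild type. With median centring, the signs that turned were Alox5 -0.020 in Aid-Cre against Sca1-Cre. Without both arrays with pancreatic transcripts, the signs that turned were Alox15 0.14 in Aid-Cre against wild type, Alox5ap -0.053, Ltc4s -0.051, Alox15 0.053 in Sca1-Cre against wild type, Alox5 -0.070 in pre-tumour against wild type. Leaving out 1 array at a time, the differences with a turned sign ranged over Mgst3 -0.45 to 0.065, Alox15 -0.0072 to 0.36 in all tumours against wild type, Mgst3 -0.62 to 0.28, Alox5 -0.11 to 1.06, Alox5ap -0.097 to 0.84, Alox15 -0.33 to 0.14 in Aid-Cre against wild type, Alox5ap -0.053 to 0.53, Ltc4s -0.051 to 0.14, Alox15 -0.31 to 0.053 in Sca1-Cre against wild type, Mgst1 -0.085 to 0.23, Alox5 -0.24 to 0.44, Alox5ap -0.39 to 0.19, Alox15 -0.029 to 0.34 in pre-tumour against wild type, Mgst2 -0.067 to 0.21 in Sca1-Cre against pre-tumour, Mgst2 -0.075 to 0.17, Ltc4s -0.0052 to 0.11 in Aid-Cre against Mb1-Cre, Mgst1 -0.16 to 0.34, Mgst3 -0.025 to 0.87, Alox5 -0.62 to 0.54, Alox5ap -0.32 to 0.62, Lta4h -0.44 to 0.0059, Alox15 -0.20 to 0.26 in Aid-Cre against Sca1-Cre. The neutrophil and macrophage covariates remove by construction what those lists share with a member. The cause of the changes was not tested for any alternative. With 3 to 5 arrays in a group, the number of arrays limits the precision.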
